A study of Homo sapiens with 3 samples.

Results

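In micropatterned colonies of human embryonic stem cells treated with BMP4, 332 of 9401 kept cells met a rule that asks for TFAP2A with GATA3 and limits SOX17 and MESP1. They are 3.53% of the kept cells (exact 95% interval 3.17 to 3.92). A kept cell had at least 3739 UMIs (unique molecular identifiers, each standing for 1 captured RNA molecule), at least 2000 detected genes and at most 15% of its UMIs from mitochondrially encoded genes. A TFAP2A/GATA3 cell had at least 2 UMIs of TFAP2A and at least 1 of GATA3, with at most 1 of SOX17 and at most 2 of MESP1, and the other 9069 kept cells of the same library were the comparison. The counts that chose the cells came from the same cells as every other value given here, so all differences are descriptions and none was tested.

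The cells were HES3 Mixl1:GFP, an established human embryonic stem cell line with a green fluorescent protein reporter for MIXL1, seeded with 10 µM of the ROCK inhibitor Y-27632 and grown for 24 h on micropatterns, which are coverslip areas that hold each colony to a set shape. Treatment then lasted 48 h. The BMP4 arm received 50 ng/mL of recombinant BMP4, the CHIR arm 6 µM of CHIR99021 (a GSK3 inhibitor that activates WNT signalling), and the CHIR+Activin arm 100 ng/mL of Activin A, which binds the receptors shared with NODAL, together with CHIR99021 at 3 µM. Each arm was 1 library of droplet-based 3′ single-cell RNA sequencing from about 10 pooled micropatterns of the same line, so there is no replicate of a treatment, and colonies within a library cannot be told apart.

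The amnion is the thin epithelium that encloses the fetus, and in primates it arises from the epiblast before and during gastrulation under BMP signalling. TFAP2A (an AP-2 factor) and GATA3 are transcription factors of amnion, trophoblast and surface ectoderm, and ISL1, a LIM homeodomain factor, is known as a regulator in primate amnion. Stem cell colonies on micropatterns treated with BMP4 are known to form an outer ring of such cells around rings of mesoderm and endoderm.

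Kept cells numbered 9401 in the BMP4 library, 7076 in CHIR and 6866 in CHIR+Activin, with medians between 12623 and 22930 UMIs and between 4511 and 6297 genes per cell. Between 8 and 12 kept barcodes were shared by any pair of libraries. The TFAP2A/GATA3 cells had a median of 15180 UMIs (4468 to 44313) and 4958 genes, against 12563 UMIs in the other BMP4 cells, and a median mitochondrial share of 4.14% against 4.08%. Together they held 5913644 UMIs, 4.31% of the BMP4 total. Levels are given as CPM, the UMIs of a gene summed over a class per 1000000 UMIs of that class, and 3 UMIs correspond to 0.507 CPM in the TFAP2A/GATA3 cells and 0.0229 CPM in the other cells. All intervals shown are exact at the 95% level and describe counting error alone.

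Cells with UMIs of both TFAP2A and GATA3 were found in the BMP4 library and in neither of the others. In the BMP4 library 1928 cells had a TFAP2A UMI, 2045 had a GATA3 UMI and 921 had both. At least 2 UMIs of TFAP2A with at least 1 of GATA3 were found in 558 cells, and 140 of these exceeded the limit for SOX17 and 120 the limit for MESP1. The CHIR library held 35 cells with a TFAP2A UMI and 42 with a GATA3 UMI, but 0 of 7076 met the rule (exact upper limit 0.0521%). The CHIR+Activin library held 22 and 22 such cells, and 0 of 6866 met the rule (exact upper limit 0.0537%). Both libraries were deeper per cell than the BMP4 library.

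Within the class, the counts of the genes that set the rule lay near its limits in many cells. TFAP2A ranged from 2 to 22 UMIs with a median of 3, and 98 cells were at the limit of 2. GATA3 ranged from 1 to 20 with a median of 2, and 111 cells were at the limit of 1. SOX17, the factor of endoderm and human germ cells, was at 0 in 297 cells, and MESP1, the factor of nascent mesoderm, was at 0 in 276. CLDN10 was lower just outside each limit than just inside. ISL1 was lower just outside the limits for TFAP2A and GATA3, and at similar levels on both sides of the limits for SOX17 and MESP1. At 2 TFAP2A UMIs (98 cells) ISL1 was at 94.8 CPM and CLDN10 at 2181 CPM, and at 1 UMI with the other limits met (171 cells) they were at 55.6 and 1660 CPM. At 1 GATA3 UMI (111 cells) ISL1 was at 71.5 CPM and CLDN10 at 1788 CPM, and at 0 (162 cells) at 33.8 and 1373 CPM. The 35 cells with 1 SOX17 UMI had ISL1 at 105.9 CPM and PRDM1 at 38.03 CPM, and the 18 cells with 2 had 107.1 and 166.4 CPM. CLDN10 was at 2127 CPM in the former and 1351 CPM in the latter. The 15 cells with 2 MESP1 UMIs had ISL1 at 37 CPM and CLDN10 at 928 CPM, against 41.2 and 647 CPM in the 10 cells with 3.

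The 4 further markers of amnion that the rule did not read, ISL1, GABRP, DLX5 and HPGD, were all higher in the TFAP2A/GATA3 cells than in the rest. ISL1 had between 0 and 12 UMIs per cell with a median of 1, and its level was 118.4 CPM (109.8 to 127.5) against 10.5 CPM (9.97 to 11.1) in the other cells, an 11.3-fold difference. DLX5, a homeobox factor of non-neural ectoderm, had 0 to 12 UMIs with a median of 1 and stood at 73.6 CPM against 5.82 CPM. HPGD, the enzyme that inactivates prostaglandins, had 0 to 70 UMIs with a median of 19 and stood at 1205 CPM (1178 to 1234) against 135.8 CPM (133.8 to 137.8). Individual cells of both classes overlapped for all of these genes, since every one had cells at 0 in the class and cells with several UMIs outside it. GABRP, a subunit of the GABA-A receptor found in amniotic epithelium, was the sparsest, with UMIs in 61 of 332 cells and 16.4 CPM (13.3 to 20.01) against 2.33 CPM (2.08 to 2.61).

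The share of cells with a UMI was compared after each cell was thinned to 10000 UMIs, which kept 282 TFAP2A/GATA3 cells and 6759 others. ISL1 was then found in 51.8% (45.8 to 57.7) of TFAP2A/GATA3 cells and 6.84% (6.25 to 7.46) of the others (68.4% and 9.16% unthinned). DLX5 was found in 42.2% and 3.89%, HPGD in 93.97% and 31.2%, and GABRP in 10.6% and 2.10%. The epiblast-like cells, which should lack these genes, had ISL1 in 0.597%, DLX5 in 0.597%, HPGD in 7.16% and GABRP in 1.79% of cells, at a median unthinned depth of 14588 UMIs. Several of the markers were often found in the same cell. At least 3 of the 4 were found in 30.9% (25.5 to 36.6) of thinned TFAP2A/GATA3 cells and 1.33% (1.07 to 1.63) of the others. None of the 4 was found in 5.32% and 63.9%.

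Free RNA in the droplets held these transcripts too. Droplets of 10 to 100 UMIs, which are too shallow to be cells, had TFAP2A at 27.4, GATA3 at 20.6, ISL1 at 11.7, DLX5 at 6.60, GABRP at 4.66 and HPGD at 149.7 CPM. Apart from GABRP, these levels lay near those of the other kept cells and far below those of the TFAP2A/GATA3 cells. TFAP2A and GATA3 in the latter were set by the rule. GABRP in the droplets lay between its levels in the other kept cells and in the TFAP2A/GATA3 cells. The part of free RNA in the UMIs of the other cells was not tested.

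**Figure D1:**
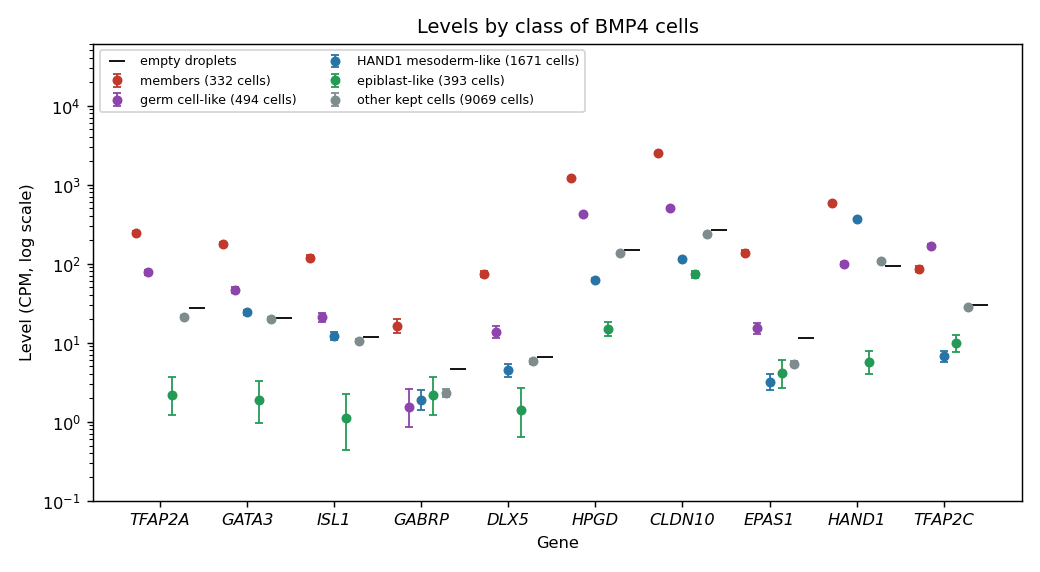
Levels (CPM, log axis) of 10 genes in the TFAP2A/GATA3 cells (members), 3 other classes of BMP4 cells, the other kept cells and empty droplets (short lines); bars are exact 95% Poisson intervals, and TFAP2A in the HAND1 mesoderm-like cells is not drawn because it was 0 by that class's rule. The members stood highest from ISL1 to HAND1. Their TFAP2A and GATA3, the TFAP2C of the germ cell-like cells and the HAND1 of the HAND1 mesoderm-like cells were set by the rules that chose those cells.

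The promoters of 4 genes that were high together in these cells are shown because they hold letters of the AP-2 or GATA motifs, the motif families of the pair of factors that define the class. Each sequence is the 250 bases before the transcription start from RefSeq (GRCh38.p14), on the strand of the gene, with the motif in capitals. The motifs searched, on both strands of the window from 250 bases before to 50 after the start, were GCCNNNGGC for AP-2 and AGATAA for GATA. The windows lie at chr10:8045083-8045332 (plus strand) for GATA3, chr5:51383198-51383447 (plus) for ISL1, chr4:174522489-174522738 (minus) for HPGD and chr5:154478228-154478477 (minus) for HAND1.
GATA3: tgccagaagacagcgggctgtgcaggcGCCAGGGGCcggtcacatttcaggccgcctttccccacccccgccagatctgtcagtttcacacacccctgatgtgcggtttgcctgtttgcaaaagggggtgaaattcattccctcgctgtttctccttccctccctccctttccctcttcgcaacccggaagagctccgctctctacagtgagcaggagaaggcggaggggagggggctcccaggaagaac
ISL1: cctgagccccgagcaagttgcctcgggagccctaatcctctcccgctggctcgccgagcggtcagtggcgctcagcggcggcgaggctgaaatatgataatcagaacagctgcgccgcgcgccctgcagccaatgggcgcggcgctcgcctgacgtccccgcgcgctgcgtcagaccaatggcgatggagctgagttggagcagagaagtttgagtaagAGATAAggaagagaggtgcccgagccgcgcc
HPGD: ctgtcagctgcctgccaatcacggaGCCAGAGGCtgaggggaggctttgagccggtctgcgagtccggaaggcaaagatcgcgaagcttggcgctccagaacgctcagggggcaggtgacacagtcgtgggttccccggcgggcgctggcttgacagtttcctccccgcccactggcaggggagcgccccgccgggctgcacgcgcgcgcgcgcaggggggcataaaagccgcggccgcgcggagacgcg
HAND1: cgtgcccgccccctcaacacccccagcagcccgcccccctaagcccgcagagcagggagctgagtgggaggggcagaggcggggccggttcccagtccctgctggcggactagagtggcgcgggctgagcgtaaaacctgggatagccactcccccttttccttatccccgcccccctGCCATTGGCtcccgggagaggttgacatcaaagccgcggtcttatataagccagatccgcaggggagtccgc
The AP-2 letters began 223 bases before the start in GATA3, 225 before in HPGD and 72 before in HAND1, and the GATA letters 31 before the start in ISL1. A further AP-2 match in HAND1 began at base 38 after the start, outside the bases printed. Among the other windows looked at one by one, that of MEIS1 held AP-2 letters and those of ANKRD1 and SLC8A1 held GATA letters. The windows of TFAP2A, GABRP, EPAS1, CLDN10, LINC02694, AMER2, ACTA1, PPARG, SEMA3D, AMOT, LINC01060, KRT8 and ID1 held neither. Such letters are common in promoters. AP-2 letters were in 28.97% of the windows of genes at least 2-fold higher in these cells (126 of 435 matched genes), 31.6% of all compared genes and 23.04% of the 27305 windows in the table. GATA letters were in 5.52%, 4.87% and 10.5% of them, and in 9.55% of the windows of genes at least 4-fold higher (15 of 157). In the windows of genes at least 4-fold higher, AP-2 letters were in 30.6% (48 of 157).

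Against all other kept BMP4 cells, most genes of the amnion and non-neural ectoderm list and all 4 simple keratins compared were at least 2-fold higher in the TFAP2A/GATA3 cells, and most genes of primitive streak and nascent mesoderm were lower. Of 10124 genes with at least 10 CPM in either class, 613 were at least 2-fold higher (6.05% of those compared) and 486 at least 2-fold lower (4.80%), and the median log2 ratio of all was −0.09. At 4-fold the counts were 215 (2.12%) and 103 (1.02%).

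**Figure D2:**
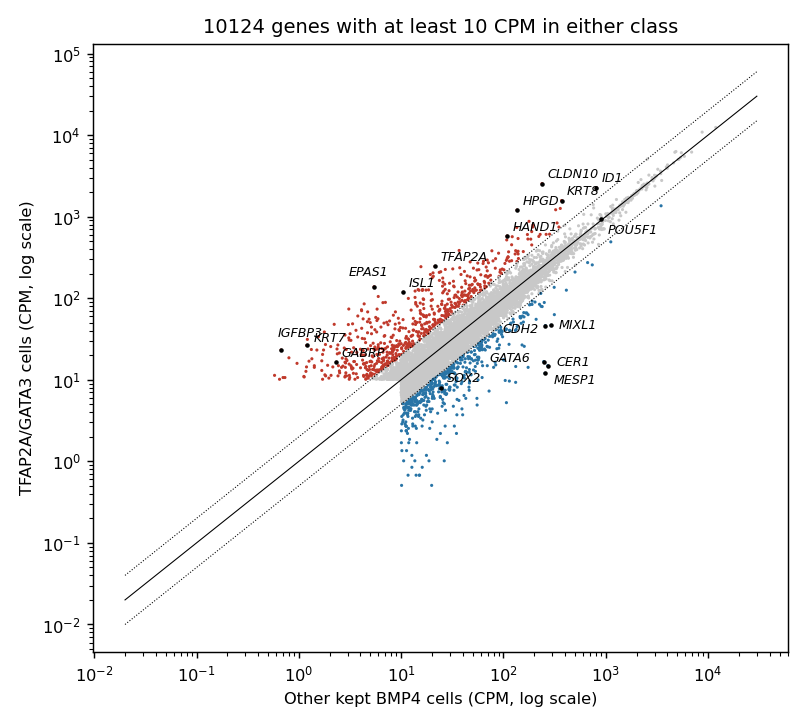
Level of each of 10124 genes in the TFAP2A/GATA3 cells (vertical axis, CPM, log) against the other kept BMP4 cells (horizontal axis, CPM, log); the solid line marks equal levels, dotted lines 2-fold, and colours genes at least 2-fold higher (red) or lower (blue). EPAS1, CLDN10, HPGD, ISL1, KRT7 and IGFBP3 lie far above the line, MESP1, CER1, GATA6, CDH2 and MIXL1 below it, and POU5F1 on it.

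Among genes with at least 50 CPM in either class, EPAS1 differed most toward the TFAP2A/GATA3 cells. EPAS1 encodes the hypoxia-inducible factor HIF-2 alpha and was at 138.2 CPM (128.8 to 148) against 5.44 CPM, a 25.4-fold difference. It was patchy, with a median of 0 and a maximum of 32 UMIs per cell, and was found in 43.6% of thinned cells against 2.32%. Next came the noncoding RNA LINC02694 (73.7 against 3.08 CPM), MEIS1, a homeobox partner of HOX proteins (85.2 against 4.35 CPM), AMER2, a membrane-bound WNT regulator (72.2 against 4.10 CPM), and ANKRD1, a YAP target gene (105.01 against 5.97 CPM). The other 10 of the leading 15 were ENSG00000288015, ACTA1, SLC8A1, PPARG, SEMA3D, AMOT, LRP1B, DLX5, TFAP2A and LINC01060, between 11.4-fold and 17.1-fold higher, and of these ACTA1 was just under 2-fold (log2 0.99) without the cells of 2 or more HAND1 UMIs. SLC8A1, a sodium and calcium exchanger, was the most abundant of these after TFAP2A, at 243.5 against 15.6 CPM, and PPARG, a lipid-sensing nuclear receptor of trophoblast and fat, was at 67.98 against 4.71 CPM.

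The 15 genes with the largest ratio toward the other cells, at 50 CPM or more in either class, included MESP1 and SOX17, which the rule limits. MESP1 was at 12.01 against 255.0 CPM. CER1, a secreted inhibitor of NODAL and BMP, was at 14.9 CPM against 270.9 CPM, GATA6, a factor of endoderm and cardiac mesoderm, at 16.7 against 247.7 CPM, and LHX1, a factor of anterior streak, at 9.30 against 131.6 CPM. FGF17, CYP26A1 (the enzyme that degrades retinoic acid), DKK1 (a WNT inhibitor), LZTS1, EPHA4, NTN1, SOX17, CNKSR3, MIXL1, EOMES and GNAL made up the other genes of the 15, between 5.86-fold and 20.4-fold lower. Empty droplets carried CER1 at 130.3, GATA6 at 173.8 and MESP1 at 147.02 CPM, well above the TFAP2A/GATA3 cells. The summed level of 6 mesoderm markers (MESP1, TBX6, MSGN1, APLNR, PDGFRA and FOXC1) was 25.9 CPM in the TFAP2A/GATA3 cells, 369.8 CPM in the other cells and 270.7 CPM in empty droplets. MESP1, which the rule limits, is part of these sums, and the part of free RNA in them was not tested.

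Of 27 genes compared from the list of amnion and non-neural ectoderm, 26 were at least 2-fold higher and 0 lower, with a median log2 ratio of 3.15. Without TFAP2A and GATA3, which the rule reads, these were 24 of 25 with the same median. A list of amniotic epithelium physiology was mixed: of 7 genes compared, HPGD, GABRP and the amino acid transporter SLC7A2 (113.5 against 19.8 CPM) were at least 2-fold higher, the carbonic anhydrase CA2 was lower (23.2 against 66.4 CPM) and 3 were within 2-fold, with a median log2 ratio of 0.12. In the list of amnion and non-neural ectoderm, the exception was IGF2BP1, an RNA-binding protein of early embryonic cells, at 223.6 against 260.9 CPM. The largest ratio in that list was that of IGFBP3, a binding protein of insulin-like growth factors (log2 5.11, 4.71 to 5.51). It was at 23.2 against 0.670 CPM and had UMIs in 36 of 332 cells. CLDN10, a claudin of ion-selective tight junctions, was the most abundant, at 2543 CPM (2503 to 2584) against 238 CPM and with a median of 38 UMIs per cell against 1. WNT6, a ligand of amnion and surface ectoderm, was at 11.3 against 0.579 CPM, and the AP-2 factor TFAP2B at 10.7 against 0.701 CPM. The grainyhead factors of epithelial barriers were all higher: GRHL1 at 30.4 against 3.23 CPM, GRHL2 at 269.7 against 56.1 CPM and GRHL3 at 41.1 against 5.54 CPM. VTCN1, an immune checkpoint protein of amnion and trophoblast, fell under the level filter, at 4.57 CPM (3.01 to 6.64) against 0.267 CPM.

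Of 8 defining markers of trophoblast, 7 were under 10 CPM, and the remaining one, TP63, was at least 2-fold higher. Their summed level, TP63 included, was 27.1 CPM in the TFAP2A/GATA3 cells, 2.19 CPM in the other cells and 5.63 CPM in empty droplets. CGB3, SIGLEC6 and GCM1 had 0 UMIs in all 332 cells, ELF5 had 1, HLA-G 3, VGLL1 9 and the hormone subunit CGA 10. Of 9 trophoblast genes compared from a list of 24, 6 were at least 2-fold higher, among them GATA2, GATA3, TP63 and KRT7, which the amnion list also holds. Without GATA3, which the rule reads, these were 5 of 8. Of the surface ectoderm list, 6 of 7 compared were at least 2-fold higher, TP63 (23.2 against 1.501 CPM) and FOXI3 (15.05 against 1.91 CPM) among them, while the epidermal keratins KRT5 and KRT14 had 0 UMIs in the class. PAX6 and SOX1, factors of neural ectoderm, also had 0 UMIs.

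Genes of epithelial structure were mixed between at least 2-fold higher and within 2-fold. All 4 simple epithelial keratins were at least 2-fold higher: KRT8 at 1575 against 369.9 CPM, KRT18 at 1215 against 324 CPM, KRT19 at 567.8 against 121.9 CPM and KRT7 at 26.4 against 1.196 CPM. KRT8 was already common outside the class, with a UMI in 99.3% of thinned TFAP2A/GATA3 cells and 90.5% of the others, whereas KRT7 was found in 17.4% and 0.903%. Of 20 genes of epithelial junctions, 9 were at least 2-fold higher, 11 were within 2-fold and 0 lower, led by CLDN10, CLDN4 (98.2 against 16.4 CPM) and PKP2 (121.8 against 26.1 CPM), and CDH1, the epithelial cadherin, was at 372.0 against 136.2 CPM. CDH2, the cadherin of mesenchymal cells, was at 46.2 against 257 CPM. Of 20 cytoskeleton genes, 10 were at least 2-fold higher, 10 were within 2-fold and 0 lower: the annexins ANXA1 (50.2 against 4.99 CPM) and ANXA3 (225.2 against 27.02 CPM) led, followed by the YAP target gene CCN2 (34.2 against 6.83 CPM) and by contractile genes such as TPM1, MYL9 (log2 0.98 without the cells of 2 or more HAND1 UMIs) and TAGLN.

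**Figure D3:**
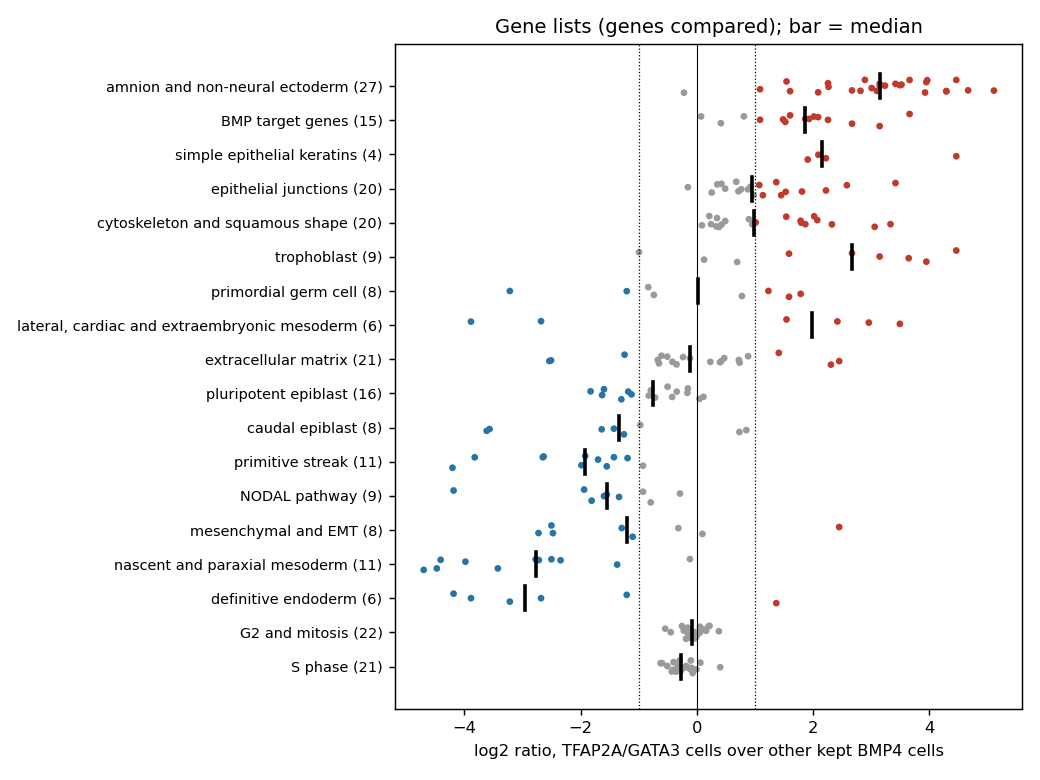
The log2 ratio of each compared gene of 18 lists, TFAP2A/GATA3 cells over the other kept BMP4 cells, with the number of genes compared in brackets, black bars at list medians and dotted lines at 2-fold. The median was 3.15 for the amnion list and −2.77 for nascent and paraxial mesoderm, with the rule genes among them, and the cell cycle lists lay within 2-fold throughout.

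The BMP pathway differed by level of the cascade. Among ligands, BMP4 itself was at 122.3 CPM (113.5 to 131.5) against 41.99 CPM, whereas BMP2 was at 4.397 against 39.3 CPM. Of 14 receptors and SMAD genes compared, SMAD9 alone was at least 2-fold higher (23.8 against 5.90 CPM) and 0 were 2-fold lower, and the receptor BMPR1A was at 341.9 against 219 CPM. Of 10 inhibitors, 4 were at least 2-fold higher and 2 lower: BAMBI, a decoy receptor that BMP induces (271.9 against 71.3 CPM), and CRIM1 were among the higher genes, and CER1 and BMPER were lower. Of 15 BMP target genes, 12 were at least 2-fold higher and 0 lower, with a median log2 ratio of 1.86, and without GATA3, which the rule reads, 11 of 14 were higher with a median of 1.73. Without the cells of 2 or more HAND1 UMIs, BMP4 (log2 0.93) and CRIM1 (0.57) were within 2-fold. The log2 ratio of the target gene HEY1 was then negative (−0.87), on few UMIs. ID1, an inhibitor of basic helix-loop-helix factors, had between 4 and 153 UMIs in every TFAP2A/GATA3 cell, with a median of 33 against 8, and was at 2263 CPM against 809.5 CPM. ID2 was at 318.6 against 111 CPM and MSX2, a homeobox factor, at 188 against 44.3 CPM, while ID3 (1067 against 609.1 CPM), SMAD6 and SMAD7 were within 2-fold. In the CHIR and CHIR+Activin libraries ID1 was at 133.2 and 195.6 CPM.

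The other signalling lists were lower or mixed. Of 9 NODAL pathway genes, 6 were at least 2-fold lower and 0 higher: CER1, LEFTY1, LEFTY2, TDGF1, FOXH1 and GDF3. NODAL itself was at 46.7 against 88.7 CPM, within 2-fold. Of 5 WNT ligands, WNT6 was higher and WNT3, WNT5A and WNT8A lower, and of 11 WNT feedback and target genes RNF43, a receptor-degrading ligase (56.8 against 9.39 CPM), and BAMBI were higher while 4, among them LGR5 (1.69 against 28.3 CPM) and DKK1, were lower. Of 16 FGF genes, DUSP6, an ERK phosphatase (62.4 against 16.4 CPM), and FGFR2 were higher and 5 were lower, namely FGF4, FGF8, FGF17, FGF19 and SPRY1. Among 8 retinoid genes, ALDH1A2, which makes retinoic acid, was at 52.6 against 7.71 CPM, DHRS3 at 23.5 against 2.91 CPM and RARB at 11.5 against 1.80 CPM, and CYP26A1 was at 9.64 against 114.2 CPM. HOXB2 (20.8 against 2.38 CPM) and HOXB6 (14.4 against 2.15 CPM) were the 2 HOX genes that reached the level filter, and both were higher. Several of these calls ended without the cells of 2 or more HAND1 UMIs: TDGF1 (log2 −0.51), LEFTY2 (−0.80), GDF3 (−0.15), WNT3 (−0.39), WNT8A (−0.11), FGF4 (−0.85) and DUSP6 (0.53) were then within 2-fold. In the same setting ALDH1A2 (−0.93), HOXB2 (−2.04) and HOXB6 (−0.31) changed the sign of their log2 ratio. That setting kept 1.14% of BMP4 cells in the class, so these ratios rest on few UMIs, and no interval was computed for them. GDF3 (−0.98), WNT3 (−0.75) and WNT8A (−0.55) were also within 2-fold with at least 1 TFAP2A UMI.

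Markers of streak and pluripotency separated. Of 11 primitive streak genes, 10 were at least 2-fold lower and 0 higher, with TBXT at 55.1 against 208.7 CPM and MIXL1 at 46.5 against 292.2 CPM. Of 11 genes of nascent and paraxial mesoderm, 10 were lower, or 9 of 10 without MESP1, which the rule limits, with RSPO3 at 1.01 against 26.4 CPM. Of 16 epiblast genes, 6 were lower (SOX2, USP44, TDGF1, POLR3G, NANOG and ESRG) and 0 higher. Without the cells of 2 or more HAND1 UMIs, SOX2 (log2 −0.89), USP44 (−0.96), TDGF1 (−0.51) and POLR3G (−0.69) were within 2-fold, as was POLR3G with at least 1 TFAP2A UMI (−0.94). POU5F1, the pluripotency factor OCT4, had between 1 and 51 UMIs in every TFAP2A/GATA3 cell and was at 923.6 against 895.2 CPM, whereas SOX2 was at 7.95 against 24.6 CPM and NANOG at 13.9 against 31.4 CPM. SOX2 and NANOG in empty droplets were at 53.99 and 46.03 CPM, above both. None of the 21 S phase genes and 22 genes of G2 and mitosis compared was 2-fold apart.

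HAND1, a factor of extraembryonic and lateral mesoderm that amnion also expresses, was shared with mesoderm. It had 0 to 60 UMIs per TFAP2A/GATA3 cell with a median of 6, was found in 71.6% (66.0 to 76.8) of thinned cells and stood at 579.0 CPM against 108.4 CPM in the rest. Of the 6 genes compared in the list of lateral, cardiac and extraembryonic mesoderm, HAND1, ISL1, BMP4 and POSTN were at least 2-fold higher and GATA4 (6.43 against 41.2 CPM) and GATA6 lower, and FOXF1, a factor of lateral mesoderm, had 0 UMIs. Without the cells of 2 or more HAND1 UMIs, BMP4 (log2 0.93) and POSTN (0.46) were within 2-fold. The matrix genes FN1 (736.3 against 134.9 CPM) and HAPLN1 (381.3 against 77.1 CPM) were higher, while VIM (51.07 against 125.2 CPM), COL5A1 and COL5A2 were lower. CDX2, a caudal and trophoblast homeobox factor, was within 2-fold, at 26.5 against 14.7 CPM.

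The class held a large share of the BMP4 library's UMIs for several genes. Its 4.31% of UMIs contained 60.9% of IGFBP3, 53.4% of EPAS1, 49.8% of KRT7 and 46.9% of WNT6 UMIs. It contained 36.3% of DLX5, 34.1% of TFAP2A, 33.6% of ISL1, 32.5% of CLDN10, 28.6% of HPGD and 24.1% of GABRP UMIs. For HAND1 and TFAP2C the shares were 19.4% and 11.9%.

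**Figure D4:**
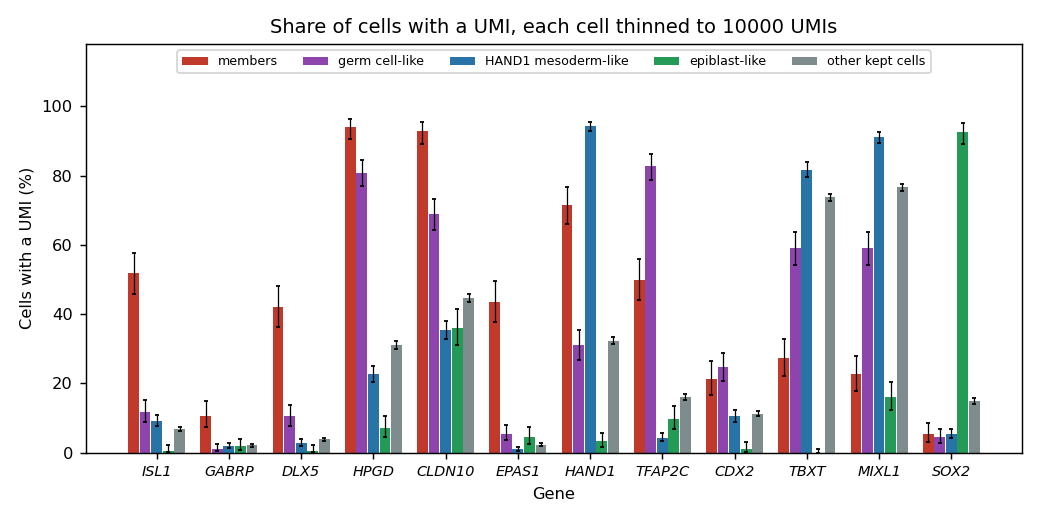
Share of cells with at least 1 UMI of 12 genes (vertical axis, percent) in the TFAP2A/GATA3 cells (members) and 4 comparison classes of BMP4 cells, each cell thinned to 10000 UMIs; bars are exact 95% binomial intervals. EPAS1 was in 43.6% of members and 0.949% of HAND1 mesoderm-like cells, and HAND1 in 71.6% and 94.3%, the latter set by the rule of that class.

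Another 3 classes of BMP4 cells that share genes with the TFAP2A/GATA3 cells were set beside them, each defined by UMIs and without members. The 494 germ cell-like cells had at least 2 UMIs of SOX17, 1 of TFAP2C and 1 of PRDM1, the factors of human primordial germ cells. Of 10019 genes compared with them, 453 (4.52%) were at least 2-fold higher in the TFAP2A/GATA3 cells and 333 (3.32%) lower. This class came nearest to the amnion list: TFAP2A was at 77.2 CPM in it, HPGD at 429.6 CPM and CLDN10 at 502.1 CPM. It can hold some of the 140 TFAP2A and GATA3 cells over the SOX17 limit, which had HPGD at 722 CPM and CLDN10 at 1074 CPM. Of the class, 11.3% were among the 6% of BMP4 cells with the highest doublet scores, against 5.12% of the TFAP2A/GATA3 cells. The part of either in these levels was not tested. Still, 24 of 25 amnion genes other than TFAP2A and GATA3 were at least 2-fold higher in the TFAP2A/GATA3 cells, with a median log2 ratio of 2.01, GABRP 10.6-fold and EPAS1 9.09-fold. TFAP2C, common to amnion and germ cells, was at 84.7 CPM in the TFAP2A/GATA3 cells and 169.3 CPM in the germ cell-like cells, whose rule reads it, and NANOG was at 13.9 and 58.3 CPM. NANOS3, a germ cell RNA-binding protein, was at 2.71 and 23.8 CPM.

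The 1671 HAND1 mesoderm-like cells had at least 2 UMIs of HAND1, none of TFAP2A and at most 1 of SOX17. Of 10096 genes, 832 (8.24%) were at least 2-fold higher and 576 (5.71%) lower in the TFAP2A/GATA3 cells. HAND1, which the rule of that class reads, differed by a log2 ratio of 0.66 (0.61 to 0.72), TBX3, a BMP-induced T-box factor, was at 152.7 and 152.6 CPM, and BMP4 at 122.3 and 97.6 CPM. Without the genes of the member rule, 21 of 25 amnion genes and 4 of 4 keratins were at least 2-fold higher in the TFAP2A/GATA3 cells, and 10 of 11 nascent mesoderm genes and 8 of 11 mesenchymal genes lower. GATA6 was at 16.7 and 515.9 CPM, and CLDN10 at 2543 and 114.6 CPM.

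The 393 epiblast-like cells had at least 2 UMIs of SOX2, none of TBXT, at most 1 of SOX17 and at most 2 of MESP1. Of 10336 genes, 791 (7.65%) were at least 2-fold higher and 875 (8.47%) lower in the TFAP2A/GATA3 cells. TFAP2A, GATA3 and ISL1 were at 2.20, 1.89 and 1.10 CPM in them, and 13 of 14 BMP target genes other than GATA3 were at least 2-fold higher in the TFAP2A/GATA3 cells. Of 18 epiblast genes 12 were lower, SOX2 of that class's own rule among them, with DNMT3B, a DNA methyltransferase, at 238.4 against 849.2 CPM, but POU5F1 was at 923.6 against 1136 CPM.

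Most cells of the class, but not all, clustered together and had high ISL1, DLX5, HPGD and CLDN10. When all kept BMP4 cells were clustered, 12 clusters resulted, and 1 cluster of 798 cells, led by EPAS1, ENSG00000288015, AMER2, LINC02694 and ANKRD1, held 279 of the 332 cells. It is called the leading cluster because it held the most of them, so it is no independent support for the label of amnion-like cells. The 53 cells outside it had TFAP2A at 151.2 CPM but ISL1 at 3.19, HPGD at 217.2, CLDN10 at 282.2 and HAND1 at 12.8 CPM, with 0 EPAS1 UMIs, and TBXT at 195.9 and MIXL1 at 171.4 CPM. Their ISL1, DLX5 (5.32 CPM) and HAND1 were below the levels of the other kept cells, while their HPGD and CLDN10 were above those levels and below those of the 279 cells (1392 and 2970 CPM). Conversely, the cluster held 519 cells that did not meet the rule, with ISL1 at 90.2, DLX5 at 51.8, HPGD at 1022 and CLDN10 at 2274 CPM. Of these, 155 had 0 UMIs of TFAP2A, 152 had 1, 95 had enough TFAP2A but no GATA3 UMI, 122 exceeded the SOX17 limit and 115 the MESP1 limit, with some cells counted for more than 1 reason. With only the 279 cells in the cluster as the class, 733 genes were at least 2-fold lower in place of 486.

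Clustering the 332 cells by themselves gave 5 subclusters. Subcluster 1 (97 cells) had the highest TFAP2A (342.5 CPM), ISL1 (190.7 CPM), HAND1 (1112 CPM), EPAS1 (372.3 CPM) and GABRP (38.3 CPM), and its leading genes included CCBE1, PDE4B, TP63 and PPARG. Subcluster 2 (81 cells) was led by ACTA1, NPPB, ANXA1 and ACTC1, genes of contractile and stretched cells, with ACTC1 at 907.9 CPM and CLDN10 at 4309 CPM. Subcluster 5 (47 cells) was led by CSMD3, THSD4 and CADPS and combined HPGD at 1794 and CLDN10 at 3550 CPM with less HAND1 (190.3 CPM). Subcluster 3 (56 cells) was led by CER1, EOMES and COL23A1, had the highest median depth (20918.5 UMIs) and held 13 of the 17 TFAP2A/GATA3 cells among the 6% of BMP4 cells with the highest doublet scores. Its ISL1 (63.2 CPM) and TBXT (76.9 CPM) lay between those of the other subclusters, and the part of doublets in these levels was not tested.

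Subcluster 4 (51 cells, 15.4% of the class) stood apart. It was led by PCDH10, TENM2 and LEF1, with MIXL1 also in its leading 10. TFAP2A was at 146.1 CPM, but ISL1 had a UMI in 3 of 51 cells, EPAS1 in 1 and HAND1 in 8, and TBXT was at 207.9 CPM and MIXL1 at 181.2 CPM. Only 4 of its cells lay in the leading BMP4 cluster. Without it the class made up 2.99% of BMP4 cells, and 738 genes were at least 2-fold lower than in the rest. Of its 51 cells, 3 were among the 6% of BMP4 cells with the highest doublet scores. In the whole class 5.12% of cells were among them, against 6.03% of the others. The part of doublets in subcluster 4 was not tested.

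**Figure D5:**
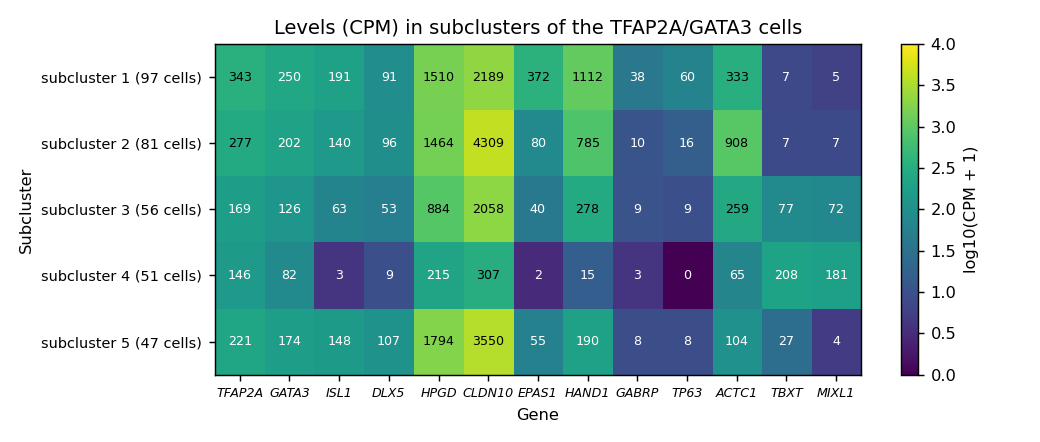
Levels (CPM, printed in each cell and coloured as log10 of CPM + 1) of 13 genes in 5 subclusters of the TFAP2A/GATA3 cells. TFAP2A (146.1 to 342.5 CPM) and GATA3 (82.1 to 249.6 CPM) were present in every row by the rule that chose the cells. ISL1, EPAS1, HAND1 and CLDN10 were low and TBXT and MIXL1 high in subcluster 4.

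Cells of the class were also split by whether they had a HAND1 UMI, and 43 of the 51 cells of subcluster 4 had none. The 252 cells with HAND1 had a median of 15481 UMIs and the 80 without it 14927, and 10.3% of 10040 genes compared were at least 2-fold apart. With HAND1, EPAS1 was at 176.1 CPM against 6.07 CPM without, MEIS1 at 107.3 against 8.34 CPM, GABRP at 20.5 against 2.28 CPM and TP63 at 29.4 against 1.52 CPM. IGFBP3 had 137 UMIs in the cells with HAND1 and 0 in those without. TBXT and MIXL1 were opposite, at 28.5 and 23.5 CPM with HAND1 and at 147.9 and 126.6 CPM without, whereas TFAP2B (10.9 and 9.86 CPM) and LIN28A (385.9 and 403.4 CPM) were alike in level. Cells with 2 or more HAND1 UMIs were then left out of the class alone, while the other kept cells were not filtered by HAND1. The class fell to 1.14% of BMP4 cells, and GABRP was no longer higher than in the rest (log2 −0.012). The log2 ratios of ALDH1A2 (−0.93), HOXB6 (−0.31) and HOXB2 (−2.04) were negative. These ratios rest on few UMIs: GABRP had 3 UMIs in the 80 cells without HAND1. The part of the filter on the class alone was not tested.

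In the split by ISL1, 227 cells with an ISL1 UMI and 105 without, at median depths of 16028 and 14367 UMIs, were at least 2-fold apart at 7.24% of 10024 genes. DLX5 was at 92.2 CPM with ISL1 and 26.8 CPM without, EPAS1 at 177.7 and 38.7 CPM, and BMP4 at 142.95 and 70.2 CPM. The split by CDX2, found in 109 cells, left 0.727% of 9771 genes at least 2-fold apart, with ISL1 at 125.97 CPM with CDX2 and 113.6 CPM without, at median depths of 20247 and 14233 UMIs. The split by SOX2, found in 29 cells, left 7.18% of 10038 genes at least 2-fold apart, with NANOG at 32.99 CPM with SOX2 and 11.3 CPM without and ISL1 at 61.7 and 125.9 CPM, but the median depths were 25150 and 14864 UMIs and the part of depth was not tested.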

How the data were processed

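The deposited files are 10x matrices of raw UMI counts per gene and barcode, which, per the file headers, the authors made using Cell Ranger 8.0.1 from Chromium 3′ v3.1 libraries, per the labels' protocols; Seurat is named in the submitters' processing notes. For the genome build, nothing is given in the sources used here. The BMP4 matrix holds all droplets, and its limit of 3739 UMIs was set at 10% of the UMIs at the 99th percentile among the 10000 deepest barcodes; the same limits were applied to the other 2 libraries. The cell rule and the 39 gene lists were chosen with earlier results of these data known, and no list or count is independent support for another.

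UMIs were summed per class and scaled to CPM, and log2 ratios carry exact conditional binomial intervals. Genes with at least 10 CPM in either class were compared, and "higher" and "lower" mean at least 2-fold. With 1 library per treatment there was no test. Named genes were the markers and rule genes, the 15 with the largest ratio each way at 50 CPM or more, and up to 4 per list, with further listed genes added after their values were seen. Symbols used by more than 1 ID were left out (21 symbols). A class at 0 counts was set at 3 counts. Shares of cells carry Clopper-Pearson intervals. Doublets were scored by a Scrublet procedure and kept in the main values. Leiden clustering used 2000 variable genes, 30 principal components and resolution 1 for all BMP4 cells, and 1000 genes, 10 components and resolution 0.5 within the class (leidenalg 0.10.2, scikit-learn 1.9.0). Ratios were tested on simulated data. Promoter windows come from a RefSeq table that matched 8119 of the 10124 genes compared. All work was done in Python 3.11.15.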

Additional observations from a re-analysis of the deposited data

How the results depend on the processing

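Results were recomputed under 17 alternatives, 3 of them added after the data were seen, except where a filter left fewer than 3 genes of a list to compare. Of 110 named genes at least 2-fold apart from the other kept cells, 81 stayed so under every alternative, and 1865 of 1870 recomputed ratios kept their direction. Of 14 lists with a median at least 2-fold apart, 7 stayed so under every alternative, and without cells of 2 or more HAND1 UMIs the medians of trophoblast (0.80), primitive streak (−0.85), caudal epiblast (−0.16), WNT ligand (−0.25) and NODAL (−0.51) genes were within 2-fold. The class share was 5.35% with at least 1 TFAP2A UMI, 1.83% with at least 3 TFAP2A and 2 GATA3 UMIs, 2.80% with thinned cells, 1.14% without cells of 2 or more HAND1 UMIs, 2.97% for the cells of the leading cluster and 2.99% without the subcluster lowest in CLDN10. In CHIR and CHIR+Activin it was 0% in each alternative run.

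Genes at least 2-fold lower than in the other cells numbered 733 in the cells of the leading cluster and 738 without the subcluster lowest in CLDN10. Genes lower than in germ cell-like cells numbered 511 and 505 in these settings, 501 under the stricter rule and 557 with thinned cells. Without cells of 2 or more HAND1 UMIs, 306 genes were higher and 217 lower than in the other cells, 238 were higher than in germ cell-like cells, 375 lower than in HAND1 mesoderm-like cells and 581 lower than in epiblast-like cells. The cells were left out of the class alone, and the other cells were not filtered by HAND1. In this setting GABRP (−0.012), HEY1 (−0.87), ALDH1A2 (−0.93), HOXB2 (−2.04), HOXB6 (−0.31) and the lateral mesoderm list (−1.76) changed the sign of their log2 ratio, and the cause was not tested. The ratios of these genes rest on few UMIs in the smaller class, and no interval was computed for them.

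The level filter moves counts by construction, since it sets which genes are compared. At 5 CPM, 1321 genes were lower than in epiblast-like cells. At 50 CPM, 281 were higher and 136 lower than in the other cells, 204 and 111 against germ cell-like, 365 and 189 against HAND1 mesoderm-like and 340 and 279 against epiblast-like cells. With a filter of 3 counts the pairs were 8226 and 2521, 1766 and 1969, 4170 and 2419, and 2227 and 3511, and the medians of neural ectoderm (0.71), lateral mesoderm (−0.042) and WNT ligand (0.98) lists changed sign. At low levels the class of 332 cells rests on few UMIs, as for CGA with 10 and VGLL1 with 9. No replicate could be left out. No paired analysis was possible because each treatment has 1 library.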

Other observations

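Metabolic and stress genes were counted beside the 6.05% of all compared genes that were at least 2-fold higher in the TFAP2A/GATA3 cells and the 4.80% that were lower. Of 18 glycolysis genes compared, the glucose transporter SLC2A3 was at least 2-fold higher (836.9 against 334.3 CPM) and the hexokinase HK2 lower (7.44 against 26.97 CPM), a share near that of all genes. SLC2A3 was at 727.7 CPM in empty droplets and within 2-fold (log2 0.65) without cells of 2 or more HAND1 UMIs. None of 14 cholesterol synthesis genes, 9 genes of the integrated stress and unfolded protein responses, 7 genes of DNA methylation and 13 mitochondrially encoded genes was 2-fold apart. Of 8 immediate early and heat shock genes, which dissociation can induce, EGR1 alone was at least 2-fold higher, at 14.4 against 6.68 CPM, and within 2-fold under the looser rule, with thinned cells and without cells of 2 or more HAND1 UMIs.

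Among 7 integrins, ITGAV was at least 2-fold higher (76.9 against 33.6 CPM) and ITGA5 lower (9.47 against 21.6 CPM), and both were within 2-fold (log2 0.58 and −0.47) without cells of 2 or more HAND1 UMIs. In the NOTCH pathway, HEY1, a target gene that BMP also induces, was at 20.1 against 4.21 CPM, and DLL3, a ligand of paraxial mesoderm, at 4.73 against 32.4 CPM.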
